A study of Mus musculus with 10 samples.

Results

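The Hox genes of the HoxA, HoxB, HoxC and HoxD clusters were examined in mouse abdominal aorta. All probe sets annotated to a single symbol made of Hoxa, Hoxb, Hoxc or Hoxd and a number were taken, which gave 48 probe sets for 33 genes, out of 45037 probe sets on the array other than controls. The 33 genes were 9 of HoxA, 9 of HoxB, 7 of HoxC and 8 of HoxD. Probe sets annotated to several genes and the non-coding genes of the clusters were not members.

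RNA came from the abdominal aorta of KCASP1Tg mice (6 arrays) and WT mice (4 arrays), and each mouse genome GeneChip array is taken here as 1 mouse. KCASP1Tg mice carry a human caspase-1 transgene under the keratin 14 promoter, which drives it in keratinocytes, and they develop dermatitis. WT mice were C57BL/6 littermates, and both groups were female and 16 weeks old (4 months in the sample names). The labels call the tissue dechorionated abdominal aorta, and the number of arrays is larger than the number of mice that the methods state. It is therefore not settled that every array came from a different mouse. The study asked how lasting skin inflammation affects the artery, so the comparison here is KCASP1Tg against WT for each Hox gene.

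Hox genes encode homeodomain transcription factors that give cells of the embryo their position between head and tail. Within a cluster, genes with low paralog numbers are expressed from nearer the head and genes with high numbers from nearer the tail, and vascular smooth muscle cells and fibroblasts keep much of this code in the adult. A piece of aorta therefore carries a set of Hox transcripts that goes with the level of the trunk it was cut from. Paralog groups 1 to 3 are called anterior here, 4 to 8 central and 9 to 13 posterior.

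The values are MAS5.0 signals, an intensity per probe set that the authors scaled to the same trimmed mean on every array. Testing required 4 or more arrays with a signal of 100 or above, and 26 Hox probe sets for 18 genes reached it. Of the anterior genes 3 of 7 were tested, of the central genes 10 of 12, and of the posterior genes 5 of 14. The tested genes were Hoxa3, Hoxa5, Hoxa7, Hoxa9 and Hoxa10, Hoxb2 to Hoxb6, Hoxc4, Hoxc5, Hoxc6, Hoxc8, Hoxc9 and Hoxc10, and Hoxd8 and Hoxd9. In 13 genes the brightest probe set had a signal of at least 100 on all 10 arrays. The tested genes ran from paralog 3 to 10 in HoxA with Hoxa4 left out, from 2 to 6 in HoxB, from 4 to 10 in HoxC, and over 8 and 9 in HoxD. Probe sets differ in how strongly they respond to the same amount of RNA, so these counts do not rank the genes by expression.

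**Figure D1:**
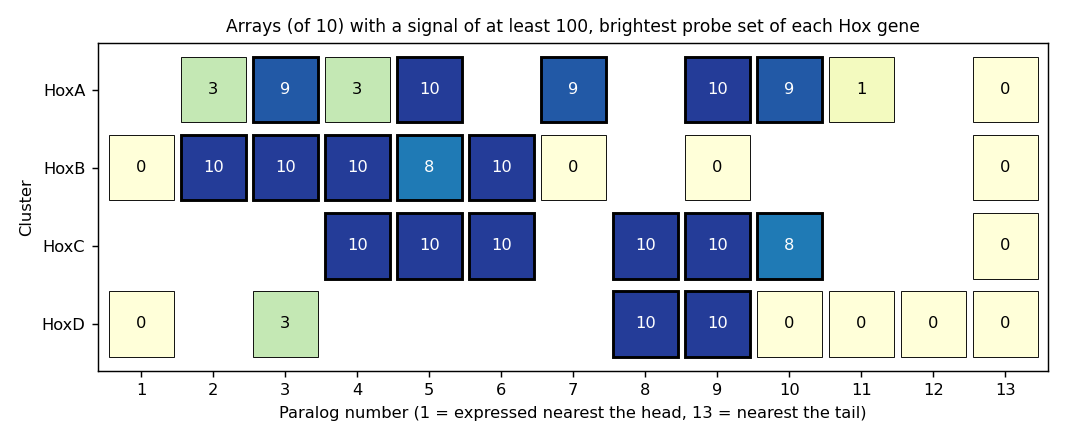
Number of arrays (of 10) on which the brightest probe set of each Hox gene had a signal of at least 100, with the clusters down the page and the paralog number across. Boxes with a thick edge mark the 18 tested genes, which end at paralog 10 in HoxA and HoxC, 6 in HoxB and 9 in HoxD.

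The remaining 22 probe sets and 15 genes had no test. None of the 7 genes of paralog groups 11 to 13, which pattern the hind end, the limbs and the urogenital tract, reached the limit on 4 arrays. Hoxa11, needed for the forearm and the kidney, had signals of 8.51 to 92.0 on KCASP1Tg arrays and 33.6 to 101 on WT arrays. Signals of the other genes of these groups stayed under 100 on the 10 arrays. Hoxa13 ran from 35.8 to 51.3 on KCASP1Tg arrays and 26.2 to 49.2 on WT arrays. For Hoxb13, a gene of the prostate and hindgut, signals were 3.37 to 17.6 in KCASP1Tg and 1.57 to 17.3 in WT. Hoxc13, required for hair, had 3.61 to 34.6 in KCASP1Tg and 4.37 to 13.6 in WT. The dim HoxD genes were like these, and the groups overlapped in each. Hoxd11 had 2.50 to 38.7 in KCASP1Tg aorta and 2.15 to 12.2 in WT aorta. Hoxd12 had 4.06 to 48.8 in KCASP1Tg and 17.1 to 47.8 in WT. Hoxd13, a gene of the digits, had 16.2 to 51.1 in KCASP1Tg and 13.2 to 42.8 in WT.

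Hoxd10, a gene of the lumbar spinal cord and hind limb, was also dim, at 8.96 to 89.7 on KCASP1Tg arrays and 24.3 to 48.6 on WT arrays. Hoxb9 had 28.8 to 84.9 on KCASP1Tg arrays and 32.3 to 61.8 on WT arrays. Hoxb7 had 3.75 to 26.8 in KCASP1Tg and 4.52 to 35.1 in WT. At the head end of the clusters, where Hoxb1 and Hoxa2 act in the hindbrain and the pharyngeal arches, the signals were again low. Hoxb1 ran from 3.58 to 55.2 in KCASP1Tg mice and from 18.0 to 48.8 in WT mice. Hoxd1 had 0.99 to 30.4 in KCASP1Tg and 12.0 to 29.9 in WT. The last 3 genes passed 100 on 3 arrays each and so lay just under the limit. Hoxa2 ranged from 87.6 to 131 in KCASP1Tg and from 65.8 to 128 in WT. Hoxa4 had 42.2 to 153 in KCASP1Tg and 53.8 to 152 in WT, and Hoxd3 had 34.5 to 119 in KCASP1Tg and 46.9 to 103 in WT. The groups overlapped in all 22 of these probe sets. A low signal is not proof that a transcript was absent, since detection calls were not used here.

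No Hox probe set differed between KCASP1Tg and WT aorta by the test over all probe sets. With limma and an adjusted p under 0.05, 0 of 26 Hox probe sets were higher in KCASP1Tg aorta and 0 were lower. Over the 26242 probe sets tested, 0.0686% were called higher and 0% lower. Before adjustment the Hox counts at p under 0.05 were also 0 higher and 0 lower, where 4.52% of all tested probe sets were higher and 3.42% lower. The two-sided exact Mann-Whitney test called 0 Hox probe sets after adjustment, and 0 of all probe sets, since 6 arrays against 4 cannot give an exact p below 0.00952. The groups overlapped in all 26 Hox probe sets, while KCASP1Tg lay wholly above WT in 1.98% of all tested probe sets and wholly below in 0.949%. With so few calls among all probe sets, these counts do not set the Hox genes apart.

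The sizes of the differences were small and mostly negative. Of the 26 log2 fold changes (KCASP1Tg minus WT), 19 were below 0 and 7 above it, and over all tested probe sets 13225 were below 0 and 13017 above. The Hox median was -0.16, against -0.0018 over all tested probe sets. The 95% intervals reached down to -1.53 (Hoxa10) and up to 1.12 (Hoxb4), so they leave room for changes of either sign. By position the median was -0.05 for 5 anterior probe sets, -0.10 for 15 central ones and -0.27 for 6 posterior ones. By cluster it was -0.17 in HoxA and -0.25 in HoxC, where 8 of 8 probe sets were negative in each. The HoxA count rested on single arrays: without KCASP1Tg 4, 4 of 8 HoxA probe sets were negative and the HoxA median was -0.04, and Hoxa3 (0.15), Hoxa5 (0.02) and Hoxa7 (0.15) were above 0 at their brightest probe sets. Without WT 4, 5 of 8 HoxA probe sets were negative, with a median of -0.02, and 7 of 8 HoxC probe sets. The medians were 0.06 in HoxB and 0.04 in HoxD, and with 1 array left out at a time they ran from -0.07 (without WT 3) to 0.21 (without WT 4) in HoxB and from -0.07 (without WT 1) to 0.23 (without WT 2) in HoxD. Without KCASP1Tg 4 the median was -0.06 over the tested Hox probe sets, 0.15 for the anterior, 0.02 for the central and -0.23 for the posterior probe sets, so the anterior and central medians turned positive. Without WT 4 the Hox median was -0.05, the central median -0.02 and the posterior median -0.49. The posterior median was -0.17 without WT 1 and -0.18 without KCASP1Tg 2. With 1 array left out at a time the anterior median lay between -0.15 (without WT 3) and 0.15, and the central median between -0.17 (without KCASP1Tg 3) and 0.02. With no limit on the signal, which adds the dim posterior probe sets, the posterior median was 0.18. Probe sets of 1 gene, and neighbouring genes that share transcripts, are not independent of each other.

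**Figure D2:**
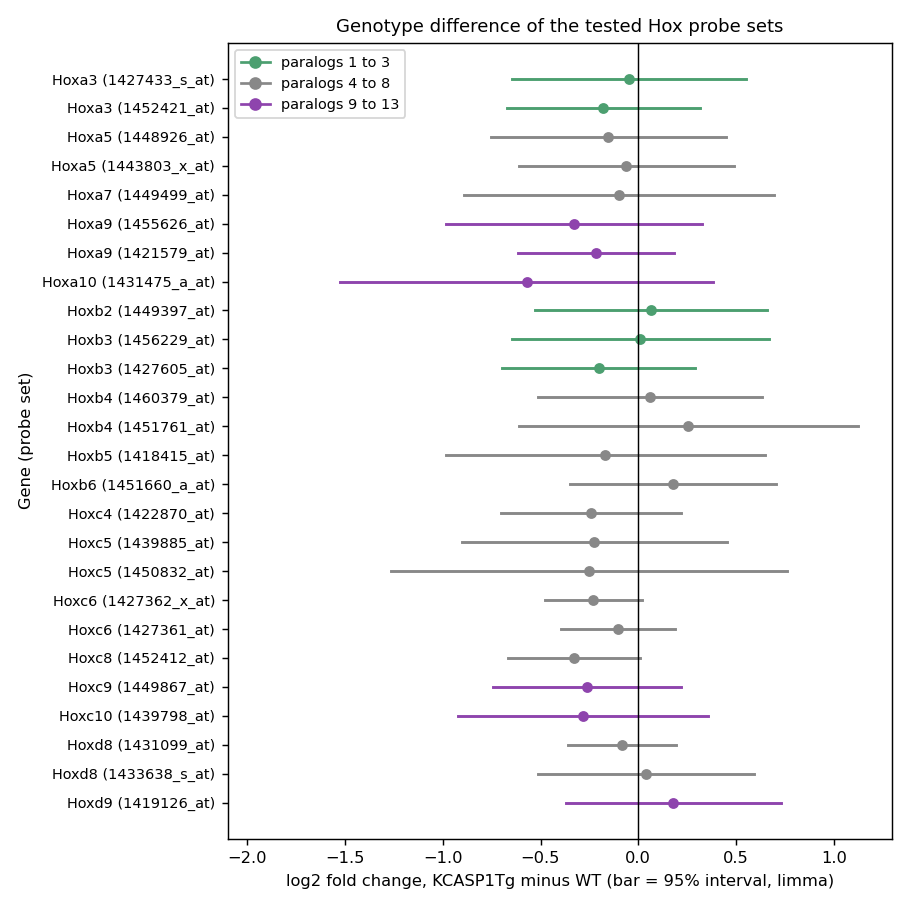
Log2 fold change (KCASP1Tg minus WT) of the 26 tested Hox probe sets on the horizontal axis, ordered by cluster and paralog number, with 95% intervals from limma. Every interval includes 0, and the point estimates lie between -0.57 (Hoxa10) and 0.26 (a second probe set of Hoxb4).

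HoxC, on chromosome 15, held the Hox genes with the smallest p-values, Hoxc8 and Hoxc6. Hoxc8, a gene of the lower thorax that also holds back brown fat formation in mice, had signals of 1053, 912, 1228, 912, 1212 and 1213 in KCASP1Tg mice 1 to 6. In WT mice 1 to 4 it had 1439, 1477, 1549.8 and 1031. WT 4 fell within the KCASP1Tg range and the other 3 WT arrays were above it. The means were 1088 ± 151 in KCASP1Tg aorta (SD, n = 6) and 1374 ± 234 in WT aorta (SD, n = 4), a log2 fold change of -0.33 (standard error 0.15, limma adjusted p = 0.646, 95% interval -0.67 to 0.01).

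Hoxc6, expressed from the level of the forelimb backwards, had 498, 428, 537, 509.7, 446 and 467 in KCASP1Tg mice. The WT mice had 504, 647, 519 and 591. WT 2 and WT 4 lay above the KCASP1Tg range and the other 2 within it. Hoxc6 had a fold change of -0.23 on the log2 scale (standard error 0.11, limma adjusted p = 0.669), and the exact two-sided Mann-Whitney p was 0.0667 before adjustment. A second probe set of Hoxc6 gave -0.10, while its last one was dim, at 5.25 to 125 in KCASP1Tg and 3.50 to 69.0 in WT.

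Further along the cluster, Hoxc9 and Hoxc10 set thoracic and lumbar identity in the spinal cord, and both are also expressed in white fat. Hoxc9 had signals of 266, 223, 399, 289, 364 and 356 in KCASP1Tg mice, and of 522, 415, 327 and 269.7 in WT mice. WT 1 and WT 2 were above the KCASP1Tg range, WT 3 and WT 4 were inside it, and KCASP1Tg 2 was the lowest of the 10. Its log2 fold change was -0.26 (standard error 0.22, limma adjusted p = 0.85). Hoxc10 had 166, 94.8, 149, 132, 144 and 162 in KCASP1Tg mice, and 214, 184, 249 and 83.0 in WT mice. Here 3 WT arrays were above every KCASP1Tg array and WT 4 was below every one. The log2 fold change was -0.28 (standard error 0.29, limma adjusted p = 0.901), and without WT 1 and WT 3 it was 0.17, so its sign rested on those arrays.

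Hoxc4, the head end of HoxC and a gene active in B cells as well as in the neck and upper thorax, had 579, 628, 420.4, 417, 474 and 854 in KCASP1Tg mice. It had 627, 708, 726 and 529.8 in WT mice. KCASP1Tg 6 was the highest array and KCASP1Tg 3 and 4 the lowest, with the WT arrays between them. Its log2 fold change was -0.24 (standard error 0.21, limma adjusted p = 0.861). Hoxc5, its neighbour, gave -0.22 (standard error 0.31, limma adjusted p = 0.941), with signals of 179 to 505 in KCASP1Tg and 244 to 418 in WT.

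**Figure D3:**
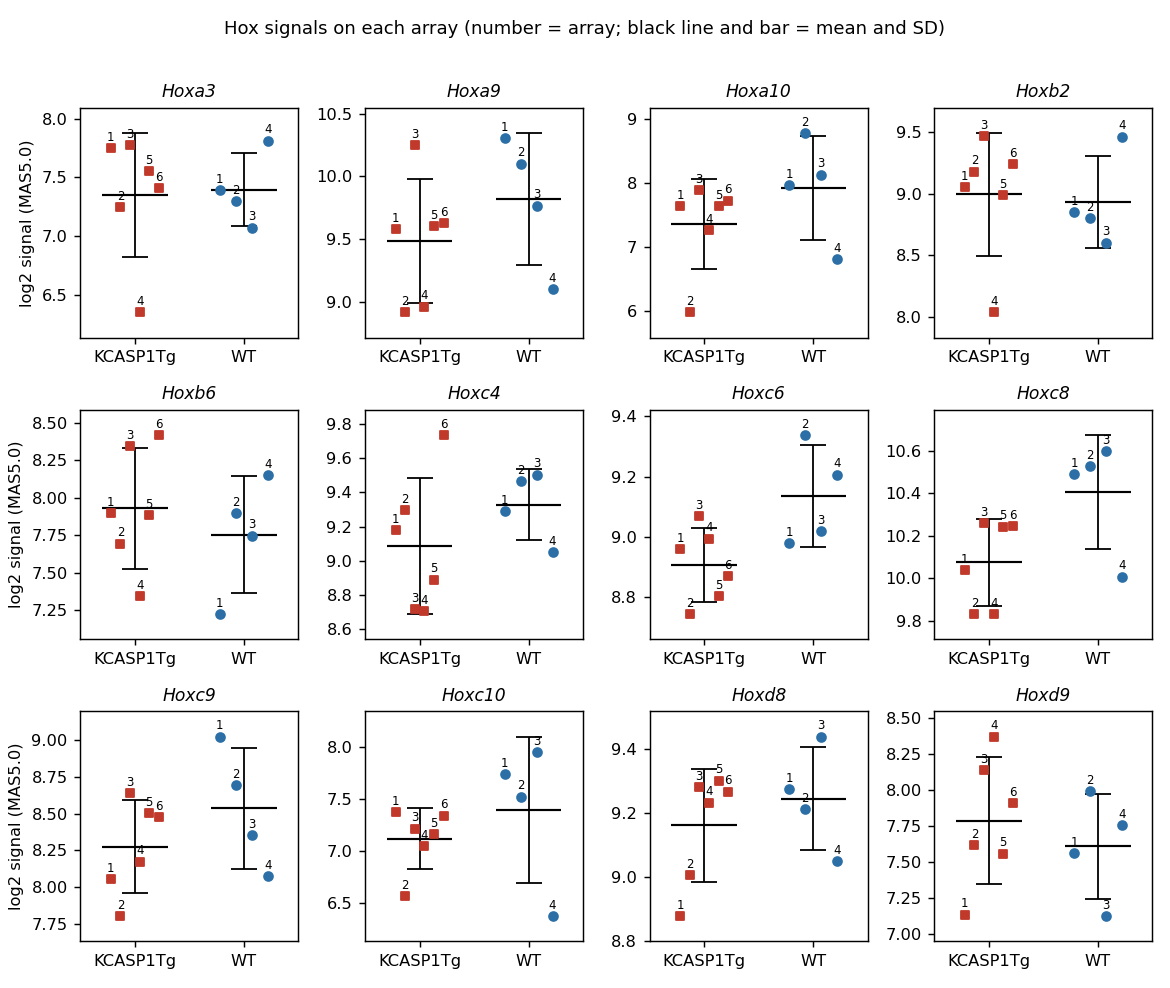
Log2 MAS5.0 signal of 12 Hox genes on each KCASP1Tg array (squares, n = 6) and each WT array (circles, n = 4), with the array's number beside its point and the group mean and SD in black; the vertical axes differ between panels. The groups overlap in every panel, and in Hoxa9, Hoxa10, Hoxc9 and Hoxc10 KCASP1Tg 2 and WT 4 lie at or near the lower end.

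In HoxA the posterior genes differed most in size but also had a wide spread. Hoxa10, which suppresses ribs at the lumbar level and patterns the uterus, had 199, 62.8, 236, 153, 199 and 211 in KCASP1Tg mice. WT mice had 251, 440.0, 281 and 112. WT 1 to WT 3 were above every KCASP1Tg array, while WT 4 was lower than 5 of the 6. The means were 177 ± 62.1 in KCASP1Tg (SD, n = 6) and 271 ± 134 in WT (SD, n = 4). The log2 fold change of -0.57 was the most negative of the 26 Hox probe sets, with a standard error of 0.43 and a limma adjusted p of 0.822.

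Hoxa9, a regulator of blood progenitors, had 765, 484, 1215, 499.5, 777 and 791 in KCASP1Tg mice. Its WT signals were 1263, 1099.7, 871 and 550.4. KCASP1Tg 2 and 4 and WT 4 were the 3 lowest arrays, and WT 1 and KCASP1Tg 3 were the 2 highest. The log2 fold change was -0.33 (standard error 0.30, limma adjusted p = 0.872), and a second Hoxa9 probe set gave -0.22 (standard error 0.18, limma adjusted p = 0.851).

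The central HoxA genes took other values on the same arrays. Hoxa5, needed for the lung and airways, had signals of 558 to 1752 in KCASP1Tg mice and 934 to 1497 in WT mice, with its lowest value on KCASP1Tg 4. WT 4, one of the lowest arrays for Hoxa9, was the second highest for Hoxa5, and KCASP1Tg 3 was the highest. Hoxa7, a gene of the thorax, had 91.1 to 317 in KCASP1Tg and 162 to 352 in WT, again lowest on KCASP1Tg 4 and highest on WT 4. The log2 fold changes were -0.15 for Hoxa5 (standard error 0.27, limma adjusted p = 0.959) and -0.10 for Hoxa7 (standard error 0.36, limma adjusted p = 0.99). Hoxa3, which shapes a pharyngeal arch, the thymus and the carotid artery, had 215, 152, 219, 81.7, 188 and 170.1 in KCASP1Tg mice. WT mice had 168, 157, 135 and 225. KCASP1Tg 4 alone stood below 100, and the other arrays of the groups overlapped. The means were 171 ± 50.8 in KCASP1Tg (SD, n = 6) and 171 ± 38.4 in WT (SD, n = 4), and the log2 fold change was -0.05 (standard error 0.27, limma adjusted p = 0.995).

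The HoxA genes lie on chromosome 6 between positions 52162417 and 52260880 of mouse build GRCm38.p6 (RefSeq). RefSeq promoter stretches, 250 bases before to 50 after a transcript's start, were at hand for 19 of the 33 genes. Those of Hoxa5, Hoxa7, Hoxa9 and Hoxa10 are shown because these neighbours differed between arrays in the 2 ways just described. All 4 are on the minus strand, at chr6:52204538-52204837 for Hoxa5, chr6:52218524-52218823 for Hoxa7, chr6:52227321-52227620 for Hoxa9 and chr6:52240805-52241104 for Hoxa10, the upstream one of its 2 listed starts. Capitals mark AGGTCA, the half-site bound by retinoic acid receptors, which control Hox genes in the embryo.
Hoxa5: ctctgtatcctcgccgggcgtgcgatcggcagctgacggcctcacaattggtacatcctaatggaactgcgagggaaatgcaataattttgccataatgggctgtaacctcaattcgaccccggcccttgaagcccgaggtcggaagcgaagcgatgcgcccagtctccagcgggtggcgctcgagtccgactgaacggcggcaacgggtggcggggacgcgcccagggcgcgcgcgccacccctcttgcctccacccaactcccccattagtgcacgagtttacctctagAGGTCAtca
Hoxa7: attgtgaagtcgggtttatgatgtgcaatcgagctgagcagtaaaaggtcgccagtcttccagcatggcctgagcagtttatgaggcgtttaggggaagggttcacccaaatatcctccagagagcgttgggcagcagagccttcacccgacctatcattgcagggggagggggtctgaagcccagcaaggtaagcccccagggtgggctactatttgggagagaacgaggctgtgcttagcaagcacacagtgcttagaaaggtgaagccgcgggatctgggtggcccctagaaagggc
Hoxa9: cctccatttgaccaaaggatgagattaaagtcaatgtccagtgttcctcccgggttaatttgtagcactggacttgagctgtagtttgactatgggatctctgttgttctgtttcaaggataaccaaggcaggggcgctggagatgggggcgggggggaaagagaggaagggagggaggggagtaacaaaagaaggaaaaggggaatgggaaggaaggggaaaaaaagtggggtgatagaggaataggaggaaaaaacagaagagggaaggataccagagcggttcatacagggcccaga
Hoxa10: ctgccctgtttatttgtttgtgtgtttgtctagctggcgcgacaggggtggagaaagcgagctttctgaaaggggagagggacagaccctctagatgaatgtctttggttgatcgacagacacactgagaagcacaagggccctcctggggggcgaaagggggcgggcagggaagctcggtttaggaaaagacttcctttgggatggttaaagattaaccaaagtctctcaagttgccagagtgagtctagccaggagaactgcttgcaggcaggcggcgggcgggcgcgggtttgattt
Read on both strands, AGGTCA was in 6 of 21 Hox promoters (Hoxa5, Hoxb4, Hoxc4, Hoxd3, Hoxd8 and Hoxd10) and in 16.3% of the 32851 promoters of the table. TGATTTAT, a composite site of a Hox protein with its partner Pbx, was in 0 of the 21 and in 0.977% of all. TAATTA, a homeodomain core, was in 2 of the 21, both of Hoxd11, and in 5.29% of all. No pair of these motifs contains the other. The Hox promoters had a median of 15 CpG dinucleotides (range 4 to 45) and 58.0% G and C, against 7 and 52.7% over all promoters. Among the 4 shown, the CpG count was 29 for Hoxa5, 9 for Hoxa7, 4 for Hoxa9 and 12 for Hoxa10. These are properties of the sequence alone, and no measurement of binding or methylation goes with them here.

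HoxB, on chromosome 11, showed no shared direction. Hoxb2, a hindbrain gene, had signals of 532, 579, 706, 263, 507 and 604 in KCASP1Tg mice and of 462, 446, 389 and 705 in WT mice. KCASP1Tg 4 was the lowest array and KCASP1Tg 3 and WT 4 the highest. KCASP1Tg minus WT was 0.06 on the log2 scale (standard error 0.27, limma adjusted p = 0.992). Hoxb6, the last HoxB gene tested, had 238, 207, 325, 163, 236 and 342 in KCASP1Tg mice, and 149.6, 238, 215 and 284 in WT mice. WT 1 was the lowest and KCASP1Tg 6 the highest, and the log2 fold change was 0.18 (standard error 0.24, limma adjusted p = 0.94).

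Hoxb3, Hoxb4 and Hoxb5 lie between them. Hoxb3 gave 0.01 on the log2 scale at its brighter probe set (standard error 0.30) and -0.20 at the other (standard error 0.22), so its probe sets differed in sign. Hoxb4, which expands blood stem cells, gave 0.06 (standard error 0.26) and 0.26 (standard error 0.39). Hoxb5, a gene of enteric neurons and vascular progenitors, gave -0.17 (standard error 0.37). The limma adjusted p-values of these 5 probe sets lay between 0.912 and 0.999. KCASP1Tg 4 was the lowest array for Hoxb5, at 48.5 against 120.1 to 211 on the other KCASP1Tg arrays and 96.0 to 189 on WT arrays. Hoxa3 overlaps Hoxa4 and Hoxa5 in the annotation, and Hoxb3 overlaps Hoxb4, so probe sets in these stretches may read a neighbour's transcript.

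In HoxD, on chromosome 2, only Hoxd8 and Hoxd9 were tested. Hoxd8 had signals of 470.3, 514, 622, 601, 631 and 616 in KCASP1Tg mice and of 619, 593, 694 and 529.9 in WT mice. KCASP1Tg 1 and 2 and WT 4 were the 3 lowest arrays. On the log2 scale the difference was -0.08 (standard error 0.12, limma adjusted p = 0.95), and a second probe set gave 0.04 (standard error 0.25). Hoxd9, which acts at the lumbar and sacral level, had 140.4, 196, 282, 331, 188 and 241 in KCASP1Tg mice, and 189, 254, 139.6 and 216 in WT mice. KCASP1Tg 4, low for most Hox genes, was the highest array here, and KCASP1Tg 1 and WT 3 were the lowest. Its log2 fold change was 0.18 (standard error 0.25, limma adjusted p = 0.943).

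**Figure D4:**
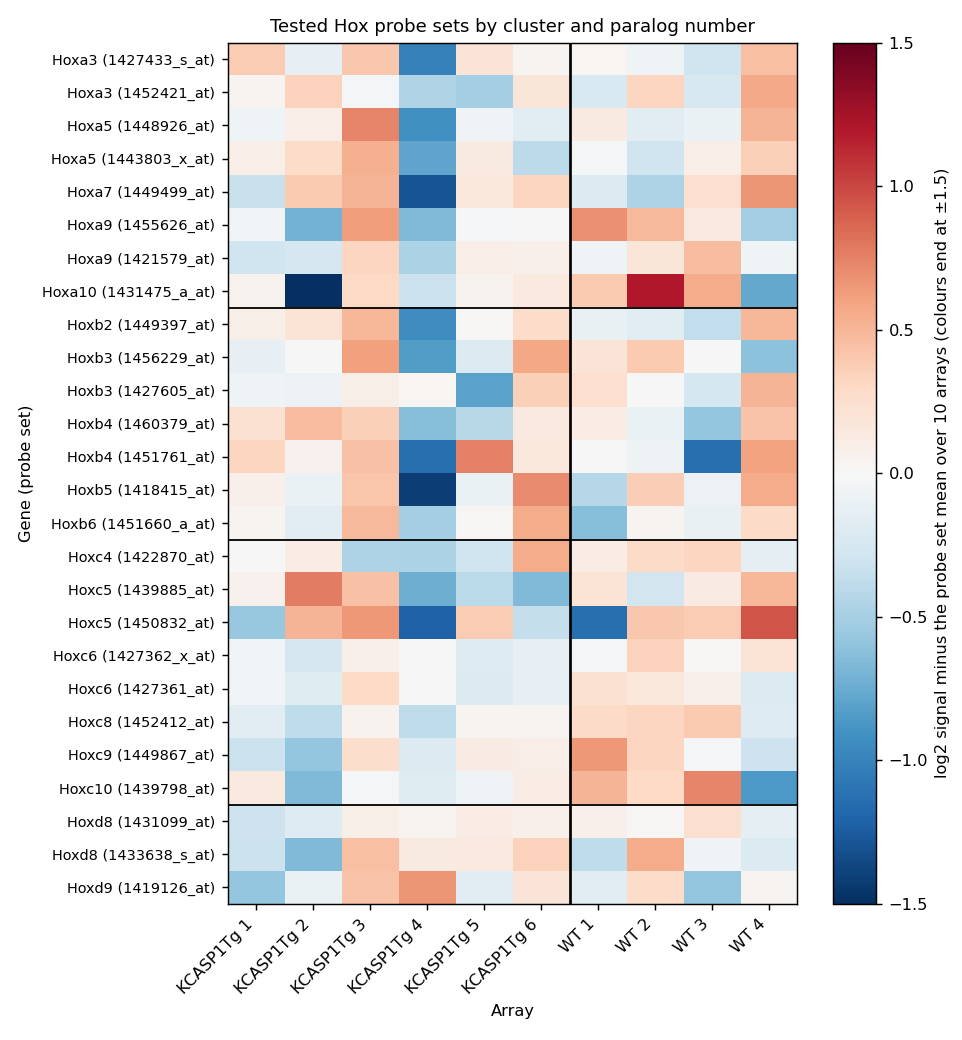
Log2 signal of the 26 tested Hox probe sets on the 10 arrays, each relative to its own mean over 10 arrays (red above, blue below, colours end at 1.5 on either side), with rows in order of cluster and paralog number and columns by array. The column of KCASP1Tg 4 is blue for 22 of 26 probe sets, that of KCASP1Tg 3 is red for 23 of 26, and WT 4 is mostly red in the anterior and central HoxA rows and blue in Hoxa9, Hoxa10, Hoxc9 and Hoxc10.

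The spread between arrays of 1 genotype was wider for the Hox probe sets than for most others. It holds measurement noise as well as differences between mice, and the probe sets compared were not matched by signal level. The residual SD on the log2 scale had a median of 0.43 over the 26 Hox probe sets (range 0.14 to 0.80), against 0.29 over all tested probe sets. The narrowest and the widest were both in HoxC, at Hoxc6 and at a second probe set of Hoxc5. KCASP1Tg 4 gave the lowest of the 10 signals for 13 of 26 Hox probe sets (50%), where it gave the lowest for 20.0% of all tested probe sets. Hoxa5 and Hoxc5 each gave more than 1 of the 13. The same array gave the highest signal for 23.2% of all tested probe sets, the most of any array, and for 1 of 26 Hox probe sets. KCASP1Tg 3 gave the lowest for 0 of 26 and lay above the mean for 23.

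This spread differed between arrays and between paralog groups. The median log2 ratio of the 6 posterior probe sets to their own means was -0.17, -0.62, 0.32, -0.26, 0.02 and 0.10 in KCASP1Tg mice 1 to 6. In WT mice 1 to 4 it was 0.45, 0.31, 0.31 and -0.41. WT 1 and KCASP1Tg 3 were the highest arrays, with WT 2 and WT 3 just under KCASP1Tg 3, and KCASP1Tg 2 and WT 4 were the lowest. The central probe sets gave -0.04, 0.06, 0.44, -0.64, 0.02 and 0.07 in KCASP1Tg mice, and -0.01, 0.04, 0.08 and 0.36 in WT mice. Here KCASP1Tg 4 was low and KCASP1Tg 3 and WT 4 were high. The anterior probe sets gave 0.04, 0.01, 0.41, -0.83, -0.22 and 0.27 in KCASP1Tg mice, and 0.03, -0.01, -0.26 and 0.49 in WT mice, again with KCASP1Tg 4 low and WT 4 high.

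Posterior minus anterior and central gives 1 value for the balance on each array, independent of a shift common to the Hox genes. It was -0.15, -0.66, -0.11, 0.42, 0.03 and -0.05 in KCASP1Tg mice, and 0.44, 0.28, 0.33 and -0.85 in WT mice. WT 1, WT 2, WT 3 and KCASP1Tg 4 had relatively more posterior signal, and WT 4 and KCASP1Tg 2 relatively less, so both ends of the scale held arrays of both genotypes. Pairs of genes within a cluster also had their lowest ratios on KCASP1Tg 2 and WT 4, while the order of the other arrays varied between pairs. The log2 ratio of Hoxa9 to Hoxa5, relative to its mean over the arrays, was 0.03, -0.80, -0.11, 0.26, 0.03 and 0.17 in KCASP1Tg mice, and 0.54, 0.66, 0.25 and -1.02 in WT mice. That of Hoxa10 to Hoxa5 reached -1.71 on KCASP1Tg 2 and -1.28 on WT 4, and 1.37 on WT 2. Hoxc9 over Hoxc5 was lowest on the same arrays, at -1.35 on KCASP1Tg 2 and -0.80 on WT 4, and highest on KCASP1Tg 6, at 0.76. Hoxc10 over Hoxc4 was -0.78 on KCASP1Tg 2, -0.72 on WT 4 and -0.44 on KCASP1Tg 6, and it was highest on KCASP1Tg 3, at 0.45. These arrays were picked out by their Hox values, and no test goes with the pattern.

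Markers of other tissues moved between the same arrays. Smooth muscle RNA was clear from the smooth muscle list. In it, 6 of 6 genes, among them Myh11 and Acta2, had a signal of at least 100 on every array. Its summed signal ran from 30382 to 81416 in KCASP1Tg mice and from 70949 to 80358 in WT mice. The low value was that of KCASP1Tg 4, the array lowest for 13 Hox probe sets, and the other KCASP1Tg arrays had at least 66252. The summed endothelial list was also lowest there, at 7297, against 9584 to 11985 on the other KCASP1Tg arrays and 9163 to 11276 on WT arrays. Of its genes, Cdh5, Vwf and Kdr were lowest on KCASP1Tg 4, while Pecam1 was lowest on KCASP1Tg 2 and Tie1 on KCASP1Tg 3. KCASP1Tg 4 further had the highest sum of 3 neutrophil genes, 41652, where the other KCASP1Tg arrays had 5149 to 11204 and WT arrays 222 to 274. The same array had the highest sum of 4 lymphocyte genes, 8499.8, where the other KCASP1Tg arrays had 288 to 1045 and WT arrays 216 to 659. The adventitial fibroblast list, with 6 of 6 genes at a signal of at least 100 on every array, had sums of 27229 to 35688 on 5 of 6 KCASP1Tg arrays, below every WT array (38798 to 43339). KCASP1Tg 3, the array with the highest median log ratio over the tested Hox probe sets (0.41), was above them at 46133. Pdgfra, Dpt and Lum were each below every WT array on the same 5 KCASP1Tg arrays, while Dcn, Col1a1 and Pi16 were not. Pi16 on KCASP1Tg 2 (2043) was above WT 1, WT 2 and WT 3 (1180 to 1434) and below WT 4 (2678). The Schwann cell genes measured, Mbp and Sox10, summed to 3504 to 7454 on KCASP1Tg arrays. The sums were 9731 to 10626 on WT 1, WT 2 and WT 3 and 3587 on WT 4. Most of each sum was Mbp. Sox10 did not separate in this way, and was highest on KCASP1Tg 6 (1053), above WT 1 (891), WT 2 (810) and WT 3 (913). For Hoxa10 and Hoxc10, as for Mbp, WT 1, WT 2 and WT 3 were above every KCASP1Tg array and WT 4 was not. In bulk tissue, fewer cells of a type and less RNA per cell cannot be told apart. The part of the tissue mixture in the Hox signals was not tested. Without KCASP1Tg 4, 0 of the Hox probe sets were called in either direction.

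Heart muscle transcripts were high on 3 arrays, and these were among the 4 lowest arrays for the posterior Hox genes. The summed signal of 8 heart muscle genes was 35529 on KCASP1Tg 1, 20745 on KCASP1Tg 2 and 72021 on WT 4. It was 738 to 2365 on the other KCASP1Tg arrays and 2345 to 3494 on the other WT arrays. Myh6, the main heart muscle myosin of the adult mouse, had a signal of 5796, 3101 and 11232 on those 3 arrays. On the others it had 14.7 to 161 in KCASP1Tg and 0.859 to 15.6 in WT. The posterior Hox medians on these 3 arrays were -0.17, -0.62 and -0.41. KCASP1Tg 4, with the lowest heart muscle sum, had a posterior median of -0.26, but its anterior and central medians were lower still. With the 3 arrays left out, the posterior median log2 fold change was -0.35 and 0 Hox probe sets were called. The part of heart muscle RNA, or of where the vessel was cut, in the Hox values was not tested.

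Liver transcripts separated the WT arrays. The summed signal of 7 liver genes was 133760 on WT 1 and 55157 on WT 3, against 1919 on WT 2, 6539 on WT 4 and 424 to 3652 on KCASP1Tg arrays. The posterior Hox median was 0.45 on WT 1 and 0.31 on WT 3, and it was also 0.31 on WT 2. With WT 1 and WT 3 left out, the posterior median log2 fold change was -0.11 and 0 Hox probe sets were called. The sympathetic neuron list was lowest on KCASP1Tg 3 (4190) and WT 4 (6461), the 2 arrays highest for the central Hox genes, and ran from 21917 to 48117 on the other 8. Brown adipocyte genes summed to 25785 to 93317 in KCASP1Tg and 42242 to 113610 in WT, with KCASP1Tg 4 the lowest and WT 4 the highest. Skeletal muscle genes were high on KCASP1Tg 4 (24921) and WT 1 (27883) and at most 1942 on the others. Adrenal cortex genes were highest on KCASP1Tg 2 (13396) and next on WT 3 (3972), and at most 1584 elsewhere. Kidney genes, of a neighbouring organ, summed to 237 to 434 in KCASP1Tg and 280.2 to 333 in WT, and 0 of 6 reached 100 on every array. White adipocyte genes (3 measured) had their lowest sum on KCASP1Tg 4 (38350) and their highest on KCASP1Tg 3 (64158). These were also the lowest and highest arrays for the median Hox log ratio (-0.50 and 0.41). KCASP1Tg 2, with a white adipocyte sum of 53181, had a Hox median of -0.10. WT arrays had white adipocyte sums of 39286 to 48525. The lowest of these, on WT 3, was close to that of KCASP1Tg 4, but the Hox median of WT 3 was 0.01. Among the white adipocyte genes, Cidec was lowest on WT 3 (8389) and not on KCASP1Tg 4 (8686). Mesothelium genes summed to 735 on KCASP1Tg 4 and to 1053 to 3162 on the other arrays. For these lists too, their part in the Hox values was not tested.

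**Figure D5:**
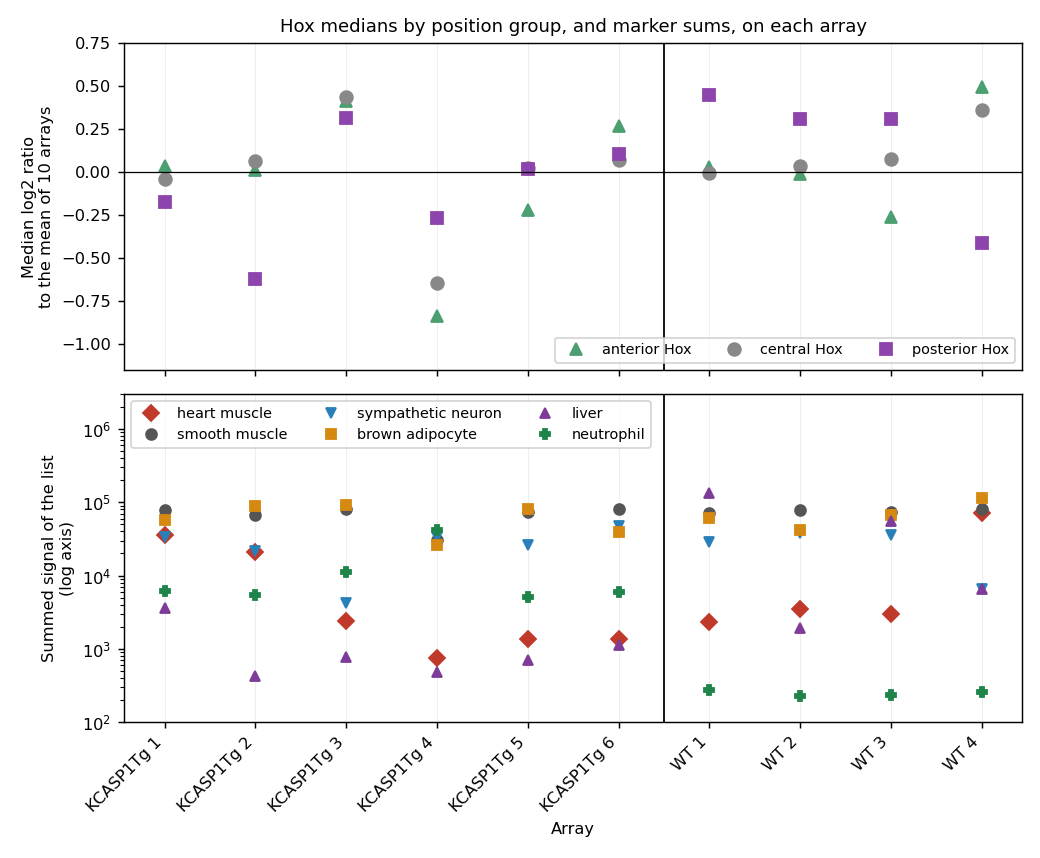
Top, median log2 ratio of anterior, central and posterior Hox probe sets to their means over the 10 arrays, for each array. Bottom, summed MAS5.0 signal of 6 marker lists on a log axis. The posterior median is low on KCASP1Tg 2 (-0.62) and WT 4 (-0.41), and the heart muscle sum is above 10000 on KCASP1Tg 1, KCASP1Tg 2 and WT 4.

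Hox proteins bind DNA with partners and are switched on and kept on or off by other factors, and 6 lists of such genes held 97 genes, of which 80 had a probe set with a single symbol. Of these, 57 genes with 107 probe sets were tested and 0 were called by limma in either direction. Before adjustment, 4 had p under 0.05 and higher signals and 2 had p under 0.05 and lower ones, against 4.52% and 3.42% of all tested probe sets. None of the 107 had groups without overlap. Genes named from these lists are those with the smallest p-values of each.

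The partners Pbx, Meis and Pknox join Hox proteins on DNA. Their list had 16 tested probe sets for 7 genes and a median log2 fold change of 0.02. A lesser probe set of Pbx2 had 491, 592, 382, 539.7, 365 and 613 in KCASP1Tg mice and 327, 393, 380.2 and 372 in WT mice. It was higher on KCASP1Tg 1, 2, 4 and 6 than on every WT array, and its log2 fold change was 0.41 (standard error 0.17, limma adjusted p = 0.568). The brightest Pbx2 probe set gave 0.02. Pbx3 gave 0.25 (limma adjusted p = 0.663). Meis2 gave -0.60 at a dim probe set (limma adjusted p = 0.678) and -0.18 at its brightest.

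Trithorax proteins keep Hox genes active and Polycomb proteins keep them silent. This list had 45 tested probe sets for 24 genes and a median of 0.02. Wdr5, a core subunit of the histone H3 methyltransferases, gave 0.32 (standard error 0.14, limma adjusted p = 0.592) and 0.40 (standard error 0.17, limma adjusted p = 0.596) at its 2 probe sets. Mllt3, a reader in the elongation complex, gave 0.43 at 1 probe set (limma adjusted p = 0.496) and -0.12 and -0.31 at the other 2, so its direction depended on the probe set. Kmt2b, a methyltransferase of the trithorax group, gave 0.21 (limma adjusted p = 0.700).

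Of the non-coding genes of the clusters 2 were tested. Hoxd3os1, on the strand opposite Hoxd3, had 563, 414, 535, 412, 403 and 558 in KCASP1Tg mice and 740.4, 763, 640.0 and 522 in WT mice. WT 1, WT 2 and WT 3 were above the KCASP1Tg range and WT 4 was inside it. The log2 fold change was -0.47 (standard error 0.16, limma adjusted p = 0.464), larger in size than that of any tested Hox probe set but Hoxa10. Hoxb5os gave 0.24 (standard error 0.26, limma adjusted p = 0.91). The retinoid list of 13 probe sets for 10 genes had a median of 0.01, with Rxrb at 0.30, Aldh1a3 at 0.35 and Rxrg at -0.16 (limma adjusted p = 0.82 to 0.931). None of the 6 caudal and ParaHox genes reached the signal limit. The other regional transcription factors, with 31 probe sets for 14 genes, had a median of -0.17 and 27 negative values. Over all 26242 tested probe sets 13225 were negative. Prrx1, Nr2f2 and other genes of the list had several probe sets each, so the values are not independent.

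Among these regional factors, Prrx1, a homeobox gene of mesenchymal cells, had the smallest p. A lesser probe set of Prrx1 had 367, 377, 512, 241, 383 and 375 in KCASP1Tg mice and 442, 539, 604 and 593 in WT mice, where KCASP1Tg 3 alone lay inside the WT range. This gave a log2 fold change of -0.56 (standard error 0.19, limma adjusted p = 0.468), and the exact two-sided Mann-Whitney p was 0.019 before adjustment. The brightest Prrx1 probe set gave -0.36 (limma adjusted p = 0.707). Meox2, a homeobox gene of vascular cells and muscle, gave -0.32 (limma adjusted p = 0.668), and Gata6, a factor of smooth muscle, gave -0.34 at a lesser probe set (limma adjusted p = 0.665) and -0.09 at its brightest.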

How the data were processed

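Gene expression of abdominal aorta was measured on 6 KCASP1Tg and 4 WT arrays. The authors computed 1 intensity per probe set with MAS5.0, brought every array to the same trimmed mean (500) and deposited these intensities on a linear scale. MAS5.0 subtracts a background and a mismatch signal, so values of dim probe sets are uncertain. Sample groups were taken from the genotype in the labels. Each array was treated as 1 mouse, and p-values measure the spread between mice only if that holds. The number of arrays limits the precision.

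Genes were named from the platform annotation, updated by gene identifier: 34945 of 45037 probe sets had 1 symbol, 932 several and 9160 none. Following the methods, a floor of 1 was set on the signal before log2 values were formed. A probe set entered the fit if 4 or more arrays had a signal of 100 or above, which stands in for the detection calls. All 26242 such probe sets were fitted together in limma (version 3.58.1 under R 4.3.3) with genotype as the 1 model term and Benjamini-Hochberg adjustment over all of them. A two-sided exact Mann-Whitney test, named in the methods, was run beside it. The steps were tested on simulated data. The signal filter can keep a probe set through 1 group, so no support was drawn from counts among those that passed.

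Where a gene had more than 1 probe set, the brightest by mean log2 signal stood for it, and the others are given where they differ in sign or by over 0.5, or to show the spread. Values on every array are given for the 8 Hox genes with the smallest p, for the lowest and highest tested gene of each cluster, and for any called or without overlap. Of the other lists, up to 3 genes with the smallest p are named. Hox members, gene lists and markers were chosen with earlier results of these data known. The results were recomputed with a floor of 16, with 50 added to each signal, with no filter or a limit of 200, after quantile normalization or after centring each array on its median, with a trended variance prior, with weights per array, at an adjusted p under 0.01, with a block for the replicate number, with probe sets averaged per gene, and without each array in turn. Leaving out the arrays with heart muscle or with liver transcripts (a summed signal above 10000) was chosen after seeing the data. Promoters are from RefSeq (GRCm38.p6). Python 3.11.15 and matplotlib 3.10.9 drew the figures.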

Additional observations from a re-analysis of the deposited data

Results flagged for a closer look

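In 36 groups of log2 signals (18 tested Hox genes in 2 genotypes) and 6 groups of position medians, a single array stood far from the rest of its group in 4, and chance alone flags about 1 in 20 groups. KCASP1Tg 4 was far below the other KCASP1Tg arrays for Hoxa3, at a log2 signal of 6.35, and for Hoxb2, at 8.04. KCASP1Tg 2 was far below them for Hoxa10, at 5.97. WT 4 was far below the other WT arrays in the posterior Hox median, at -0.411. KCASP1Tg 4 also had the lowest smooth muscle sum, and KCASP1Tg 2 and WT 4 were among the 3 arrays with heart muscle transcripts.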

How the results depend on the processing

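The counts of Hox probe sets and of partner and regulator probe sets called were 0 under each alternative run. The log2 fold changes of Hoxa9, Hoxa10, Hoxc4, Hoxc6, Hoxc8 and Hoxc9 stayed negative, with 0 calls, in the alternatives run, of which 17 or 18 of 24 for each gene moved the value at all, from -0.942 to -0.285 for Hoxa10 and from -0.463 to -0.193 for Hoxc8, whose smallest limma adjusted p was 0.12. The posterior median changed sign, to 0.18, with no signal filter, which adds dim probe sets. In 12 genes the sign turned in at least 1 alternative, and the cause was not tested. Hoxb3 was -0.00524 with quantile normalization and -0.0957 as the mean of its probe sets. With array weights Hoxa3 was 0.239, Hoxa5 0.0165, Hoxa7 0.0866, Hoxb3 -0.139 and Hoxb5 0.0286. Without the arrays with heart muscle transcripts Hoxa3 was 0.0188, Hoxa7 0.0648 and Hoxb3 -0.162. Without those with liver transcripts Hoxb2 was -0.138, Hoxb4 -0.139, Hoxb6 -0.0915, Hoxc10 0.169, Hoxd8 0.0295 and Hoxd9 -0.086. Leaving out each array in turn gave -0.153 to 0.153 for Hoxa3, -0.312 to 0.0185 for Hoxa5, -0.275 to 0.151 for Hoxa7, -0.0454 to 0.255 for Hoxb2, -0.193 to 0.178 for Hoxb3, -0.123 to 0.213 for Hoxb4, -0.344 to 0.0989 for Hoxb5 and -3.99e-05 to 0.308 for Hoxb6. Samples of the same number did not deviate together (correlations 0.108, -0.314, -0.435 and -0.326). These values show no pairing by number but cannot exclude one, since the arrays also differ in RNA of neighbouring tissues. With the replicate number as a block Hoxb3 was -0.0779 and Hoxc5 0.000228. Over all probe sets the calls moved, to 204 higher and 63 lower with array weights, 61 and 8 without KCASP1Tg 4, 39 and 2 without KCASP1Tg 6, and 0 with the block or without WT 1 and WT 3, against 18 and 0. Dim probe sets near the background limit the paralogs 11 to 13, for which no test was made.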
